A study of Mus musculus with 10 samples.

Results

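Open chromatin was described at 10 genes of mouse neural stem cells: Smchd1, its partner Lrif1, the insulator gene Ctcf and the cohesin genes Rad21, Smc3, Stag1, Nipbl, Wapl, Pds5a and Pds5b. A peak belonged to these genes when its summit lay in 1 of them or within 5 kb of it in the RefSeq gene table of GRCm38.p6, the sequence build of mm10. By that rule 140 of 423900 peaks were members, summed over 4 peak lists, and they merged by overlap into 44 sites. The rule uses gene names and positions only. The deposited lists held 28 of these peaks in deleted females, 41 in control females, 32 in deleted males and 39 in control males.

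The assay was ATAC-seq, in which a transposase places sequencing adapters where DNA is accessible. The groups were 3 libraries of female Smchd1 del/del cells, 3 of female Smchd1 fl/fl cells, 2 of male Smchd1 del/del cells and 2 of male Smchd1 fl/fl cells. All were C57BL/6 neural stem cells, from lines derived from Smchd1 fl/fl embryos at E14.5. The homozygous floxed allele is thus the starting genotype of every group, and the fl/fl libraries are called wild-type controls in the labels. The protocol given with all 10 samples has the lines transduced with the retrovirus MSCV-Cre-puro, puromycin added at 24 h and cells harvested at 7 days, and the sources used here do not say if the fl/fl lines were given a vector. The titles and the sex field call 4 samples male while their description reads female, and the groups follow the titles. Each group is 1 peak list called on pooled libraries, so the values that follow carry no replicate error and none of the differences could be tested across libraries. The protocol text does not say how many embryos gave the lines.

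SMCHD1 is a noncanonical SMC protein that helps keep the inactive X chromosome and some imprinted and clustered genes silent, and LRIF1 binds it and HP1 proteins. Cohesin is a ring built of SMC1A, SMC3, RAD21 and a STAG subunit. NIPBL helps load it on DNA, WAPL releases it, PDS5 proteins regulate both its release and its retention, and CTCF halts it at bound sites to set the ends of chromatin loops.

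Tags after filtering numbered 139318421 in deleted females, 144613215 in control females, 74674218 in deleted males and 91734730 in control males. Depth and list length differed. Ranks and counts therefore rest on equal-length lists, the top 88159 peaks of each by −log10 q. That value is the authors' significance of a peak over local background, corrected for multiple testing. A rank of 1 is the most significant peak, called the strongest here. Of 12 neural stem cell markers, 11 had a peak within 1 kb of an annotated start in deleted females, 10 in control females, 11 in deleted males and 11 in control males. Pax6, a patterning factor, had none in any list. Of the 4 microglia and blood markers none had a start peak, while 4 of 6 neuron and 3 of 3 fibroblast markers had one in every list, so an open start alone did not separate these cell types. Astrocyte and oligodendrocyte markers had 2 of 4 each in every list, and endothelial markers 2 of 3 except for 1 in control males. Of the 2 pluripotency markers, Pou5f1 had a start peak in both deleted lists and in neither control list. It ranked 87643 in deleted females and 71746 in deleted males. In the deposited control lists it had a weak start peak past the equal-length cut, ranked 121199 in females and 89095 in males. Marker ranks also shifted in males, where 58.2% of all coding start peaks ranked better in the deleted list. The start peaks of 4 of 4 neuron and 3 of 3 fibroblast markers ranked worse in deleted males, with median log2 rank ratios of 0.46 and 0.56. So did 2 of 2 astrocyte and 2 of 2 oligodendrocyte markers, with medians of 0.32 and 0.42, and the 1 endothelial marker compared, at 0.76. Of 11 neural stem cell markers 8 ranked better and 2 worse, with a median of -0.20. Prom1 was almost level, at 32532 in deleted and 32543 in control males. In females the medians were 0.21 for neuron, 0.21 for fibroblast and 0.02 for neural stem cell markers. They were 0.18 for astrocyte, -0.30 for oligodendrocyte and -0.095 for endothelial markers, and 51.9% of all coding start peaks ranked better in deleted females. The part of other cell types in the member shifts was not tested.

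The starts of Smchd1, Lrif1, Ctcf, Stag1 and Wapl are printed because their peaks carry the values that follow. Each sequence is the RefSeq promoter (GRCm38.p6), 250 bases before the start and 50 after it, on the strand of the gene. Capitals mark matches on either strand to 9 motifs. These are GGGCGG, known as the GC box, and CCAAT, bound by NF-Y. CCGGAAGT stands for ETS factors, GCATGCGC for the core of NRF1 and AAGATGGC for that of YY1. TGACGTCA is the cAMP response element CRE and CACGTG an E-box. GGNGGCAG was taken for the CTCF core and ACTACAA for ZNF143. Matches may overlap.
Smchd1, chr17:71475294-71475593, minus strand: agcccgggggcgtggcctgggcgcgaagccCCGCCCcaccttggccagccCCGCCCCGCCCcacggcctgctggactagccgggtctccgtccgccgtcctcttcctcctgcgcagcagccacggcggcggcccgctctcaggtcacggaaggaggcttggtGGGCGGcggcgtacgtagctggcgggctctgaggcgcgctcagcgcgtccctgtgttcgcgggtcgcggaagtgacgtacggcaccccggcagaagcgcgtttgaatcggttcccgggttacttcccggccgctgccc
Lrif1 first start, chr3:106684737-106685036, plus strand: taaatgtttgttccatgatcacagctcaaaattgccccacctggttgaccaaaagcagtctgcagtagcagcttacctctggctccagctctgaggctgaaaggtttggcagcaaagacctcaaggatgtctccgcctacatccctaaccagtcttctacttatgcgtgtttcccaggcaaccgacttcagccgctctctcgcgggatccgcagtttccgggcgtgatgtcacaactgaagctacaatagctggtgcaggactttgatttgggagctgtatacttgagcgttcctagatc
Lrif1 second start, chr3:106721432-106721731, plus strand: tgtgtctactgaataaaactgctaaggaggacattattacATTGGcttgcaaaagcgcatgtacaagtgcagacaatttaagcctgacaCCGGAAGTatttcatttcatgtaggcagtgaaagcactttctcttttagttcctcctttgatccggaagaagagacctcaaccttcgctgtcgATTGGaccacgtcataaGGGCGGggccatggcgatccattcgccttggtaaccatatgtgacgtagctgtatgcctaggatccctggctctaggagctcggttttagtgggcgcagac
Ctcf, chr8:105636288-105636587, plus strand: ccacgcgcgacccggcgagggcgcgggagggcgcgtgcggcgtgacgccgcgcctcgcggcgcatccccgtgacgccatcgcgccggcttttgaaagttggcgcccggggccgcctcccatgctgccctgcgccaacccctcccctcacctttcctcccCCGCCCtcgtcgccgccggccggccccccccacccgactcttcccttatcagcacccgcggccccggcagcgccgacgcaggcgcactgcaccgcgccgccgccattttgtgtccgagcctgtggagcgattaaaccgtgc
Stag1, chr9:100643198-100643497, plus strand: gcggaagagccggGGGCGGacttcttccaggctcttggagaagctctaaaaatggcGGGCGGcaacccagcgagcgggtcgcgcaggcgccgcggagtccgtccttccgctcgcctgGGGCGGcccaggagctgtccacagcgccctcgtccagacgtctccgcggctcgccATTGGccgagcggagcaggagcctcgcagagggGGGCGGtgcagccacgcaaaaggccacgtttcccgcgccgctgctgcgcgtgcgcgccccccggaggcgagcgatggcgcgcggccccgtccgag
Wapl, chr14:34673678-34673977, plus strand: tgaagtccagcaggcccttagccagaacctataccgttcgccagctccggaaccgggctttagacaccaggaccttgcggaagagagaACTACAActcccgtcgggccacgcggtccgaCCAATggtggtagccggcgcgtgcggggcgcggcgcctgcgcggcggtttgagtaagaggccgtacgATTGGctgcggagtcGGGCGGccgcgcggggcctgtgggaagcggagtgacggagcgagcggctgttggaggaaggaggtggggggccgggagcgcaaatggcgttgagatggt

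The table held 9 promoters for 8 of the 10 genes, with Lrif1 present at both of its starts. Rad21 and Nipbl are named only. A GC box was in 8 of the 9, against 35.7% of the 32851 promoters in the table, and the Smchd1 and Stag1 windows each held 4. CCAAT was in 4 of 9, those of Lrif1 (second start), Stag1, Wapl and Pds5b, against 37.4%. The ETS match stood only at the second Lrif1 start, the ZNF143 match only at Wapl and the CTCF core only at Pds5b among these 9 windows, against 3.89%, 3.24% and 12.6% of all promoters. NRF1 core, YY1 core, CRE and E-box letters were in none of the 9, against 2.71%, 2.75%, 1.79% and 7.15%. Median GC content was 73.7% in the 9 windows, against 61.0% in 14165 promoters of coding genes with a start peak in every list and 52.7% in all promoters. The ratio of observed to expected CpG was 1.01, against 0.745 and 0.384. The motif shares above are over all promoters, and none was computed for promoters as rich in G and C as these windows. The 2 Lrif1 windows were the poorest in G and C, with 51.0% and 47.7%.

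Smchd1, the targeted gene, lies on chromosome 17 from 71344489 to 71475366 (mm10), on the minus strand. Its start peak was 1358 bp long in deleted females, 1629 bp in control females, 1322 bp in deleted males and 1378 bp in control males, and it covered all 300 bases printed above in every list. Which exons were deleted is not stated, so a peak at the start checks nothing about the deletion. Within each list the authors' fold enrichment over local background was 8.81 in deleted females, 8.28 in control females, 11.6 in deleted males and 9.64 in control males. The peak ranked 754 in deleted females and 597 in control females. In males it ranked 271 in deleted cells and 1226 in controls, 4.52-fold better in the deleted list. By −log10 q the shift was thus 0.34 in females and -2.18 in males (log2 rank ratio, deleted over control), opposite in sign. Ranked by fold enrichment the female sign turned, with -1.08 in females and -1.68 in males, while ranked by pileup it was 1.36 and -1.29. The 2 control lists themselves differed at this peak by -1.04 on the log2 rank scale, females over males. Both male ranks lay near the top of the equal-length lists, at 0.307% in deleted and 1.39% in control males. On a log scale the same number of ranks counts for more there.

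Beyond its start, Smchd1 had 1 more site, 36.1 kb inside the gene, from 71438165 to 71439769. It held 1 peak in deleted females (rank 71325), 2 in control females (best rank 91916), none in deleted males and 4 in control males (best rank 90885). These were weak peaks, and of them only that of deleted females was strong enough for the equal-length lists. The 3 coding genes whose start peak ranks most resembled those of Smchd1 over the 4 lists were Timm21, Gatad2a and Otub2, with sums of squared log2 rank differences of 0.246, 0.346 and 0.357 among 13661 genes. Timm21 ranked 889 in deleted females, 758 in control females, 249 in deleted males and 1041 in control males.

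Lrif1, on chromosome 3, had a peak at each of its annotated starts, and that at the second was the strongest of the 10 genes in every list. At the second start the peak ranked 97 in deleted females, 85 in control females, 134 in deleted males and 58 in control males. At the first start it ranked 133, 124, 314 and 190 in the same order of lists. Both peaks ranked lower in the deleted list in both sexes, by 0.19 in females and 1.21 in males at the second start and by 0.10 and 0.72 at the first, on the log2 rank scale. The lists of 1 genotype differed between the sexes by up to 1.24 at the first start and 0.55 at the second, so these shifts did not exceed that difference in both sexes. Their direction depended on the ranking value: by fold enrichment both peaks ranked better in the deleted list in both sexes, and by pileup better in deleted females and worse in deleted males. No other peak lay in Lrif1 or its flanks in any list.

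**Figure D1:**
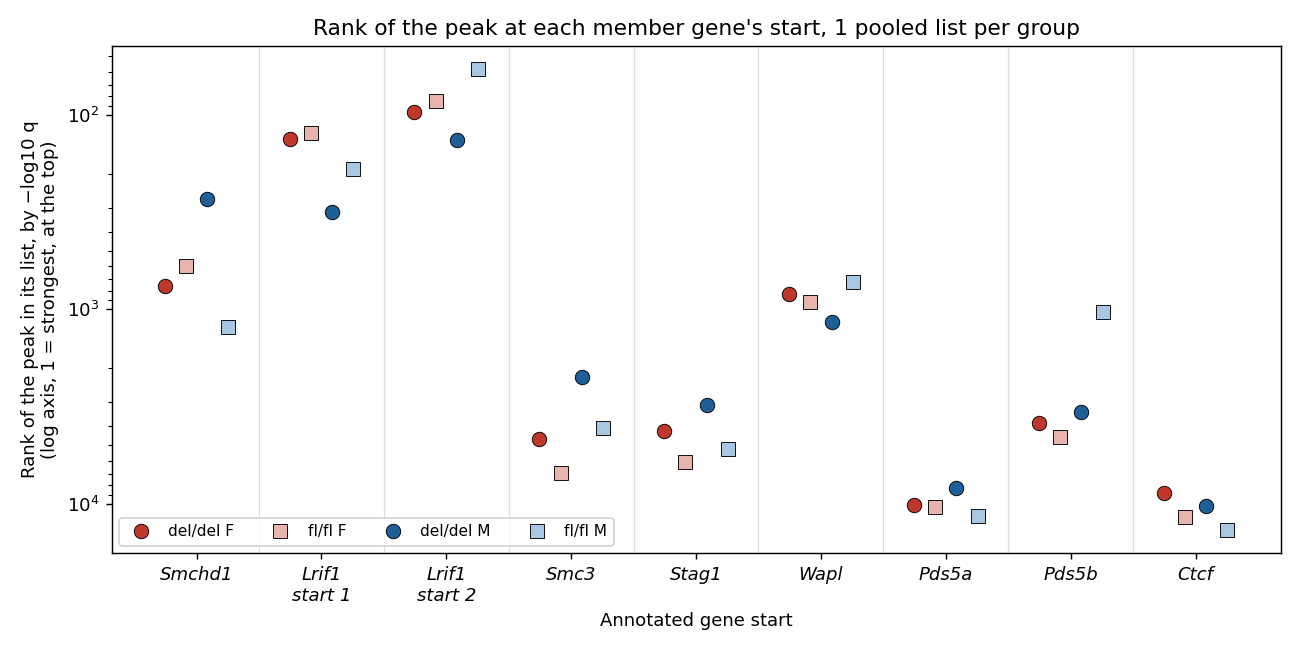
Rank by −log10 q (log axis, 1 at the top) of the peak at each annotated start with a peak in all 4 lists, with circles for del/del and squares for fl/fl lists. The second Lrif1 start sits highest, between ranks 58 and 134, Ctcf and Pds5a lowest, and Smchd1 and Pds5b are the starts where the male lists lie far apart.

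Across the starts, all 8 genes with a start in the promoter table had a peak within 1 kb of it in every list. For Rad21 and Nipbl only the ends of the gene span were at hand, so their starts could not be read. With a window of 2 kb, 9 genes had a peak in both lists of either sex. The median rank of these 8 start peaks was 4023 in deleted females, 5328.5 in control females, 2664.5 in deleted males and 2641 in control males. Among all coding genes with a start peak the medians were 12044, 12035, 11577 and 12323 in that order of lists. All 8 ranked better than that median in 3 of the lists and 7 of 8 in control males, where Ctcf ranked 13657. They were also long, with a median of 1378.5 bp in deleted females and 1455.5 bp in control females, against 827 and 910 bp over coding genes. In males the medians were 1229.5 bp in deleted and 1286.5 bp in control cells, against 741 and 803 bp.

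A better rank in the deleted list was seen at 6 of 8 start peaks in females, beside 51.9% of 13938 coding genes, and at 5 of 8 in males, beside 58.2% of 13862. The exact 95% binomial intervals of the shares, 34.9% to 96.8% in females and 24.5% to 91.5% in males, include those backgrounds. Ranking by fold enrichment gave 8 of 8 in females and 6 of 8 in males, and ranking by pileup gave 4 and 5. The median shift was -0.19 in females and -0.45 in males on the log2 rank scale (deleted over control, negative for a stronger rank in deleted cells), against -0.02 and -0.10 over all coding starts. Of all coding starts 6.65% shifted by 2-fold or more in females and 8.06% in males, and between the 2 control lists 6.45% did. These shares cover starts of all ranks, and none was computed for starts ranked as near the top as that of Smchd1.

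Among ring subunits, Smc3 on chromosome 19 encodes a core ATPase of cohesin. Its start peak ranked 4619 in deleted females, 6946 in control females, 2216 in deleted males and 4056 in control males. It stood higher in the deleted list in both sexes, by -0.59 and -0.87 on the log2 rank scale, while lists of the same genotype differed by up to 1.06. The summit lay at -374 bp from the annotated start in deleted females, -359 bp in control females and -364 bp in either male list, outside the promoter window. Farther off, 2 sites beyond the other end of the gene, 48.5 and 49.1 kb from the start, had a peak in every list, ranked 53099 at best, and a weak site 8.71 kb after the start was seen in deleted males alone.

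Rad21 encodes the kleisin that closes the cohesin ring. No peak lay within 1 kb of either end of its gene span on chromosome 15, from 51962604 to 51993538. The main peak lay 1.69 kb inside the end with the higher coordinate and ranked 2585 in deleted females, 3045 in control females, 5033 in deleted males and 5144 in control males. The lists of females and males differed more than the genotypes did, with shifts of -0.24 and -0.03 between genotypes and up to 0.96 between sexes. An end of Gm52217, a predicted coding gene that overlaps Rad21, lay within 1 kb of the summit, so the 2 genes cannot be told apart here. The other 2 Rad21 sites were weak, ranked 67775 at best.

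Stag1 encodes 1 of the alternative STAG subunits of cohesin, and at 361 kb it was the longest of the 10 genes. It held 13 of the 44 sites. In the equal-length lists it had 6 peaks in deleted females and 9 in control females, and 6 in deleted males and 11 in control males. As background, among 1240 coding genes with at least 9 peaks in both control lists, 0.726% had no more than 2 deleted peaks for every 3 control peaks in both sexes, that is 9 genes with Stag1 among them, and 4 genes met the mirrored rule. This rule was set after the Stag1 counts had been seen, and the ratios for the gene, -0.58 (-2.36 to 1.07) and -0.87 (-2.59 to 0.69) on the log2 scale, have counting intervals that include 0. Under a −log10 q threshold of 10 the counts were 4 and 8 in females and 5 and 6 in males.

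Rank shifts at the Stag1 start and at sites farther into the gene differed in sign. At the start the peak ranked 4214 in deleted females, 6103 in control females, 3113 in deleted males and 5251 in control males. That is a stronger rank in deleted cells of both sexes, by -0.53 and -0.75 (log2), beyond the largest difference between the sexes within a genotype, 0.44. Ranked by pileup the female shift turned to 0.023, and ranked by fold enrichment the shifts were -0.62 and -0.54. Inside the gene, the site 124 kb after the start ranked 57644 in deleted females, 34440 in control females, 63144 in deleted males and 35466 in control males. Its shifts were 0.74 and 0.83, against at most 0.13 between the sexes, and they exceeded that difference under the other 2 ranking values as well. The site 42.5 kb after the start ranked 13716 in deleted females, 8983 in control females, 11740 in deleted males and 5484 in control males. There the shifts, 0.61 and 1.10, ran the same way, but the sexes differed by up to 0.71.

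Weak Stag1 sites made up the difference in number. The site 274 kb after the start, from 100917206 to 100917411, had a peak in both control lists (ranks 54554 in females and 61099 in males) and in neither deleted list. So did the site 26.3 kb before the start, at ranks 73753 and 81849 in the control lists. As deposited, 3 more Stag1 sites, 43.5 kb before and 255 and 299 kb after the start, were present in both control lists alone. Their peaks in control females ranked 93175, 93176 and 89188, past the equal-length cut of 88159. The control lists were the longer ones as deposited, with 130103 peaks against 104316 in females and 101322 against 88159 in males. The share of all sites with this pattern in the full lists was not computed. A weak site, 93.0 kb after the start, stood in the list of deleted females alone, at rank 79423. The sites 37.4 and 29.7 kb before the start, still inside the gene span, were present in every list, and the second of them ranked between 8976 and 11262.

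**Figure D2:**
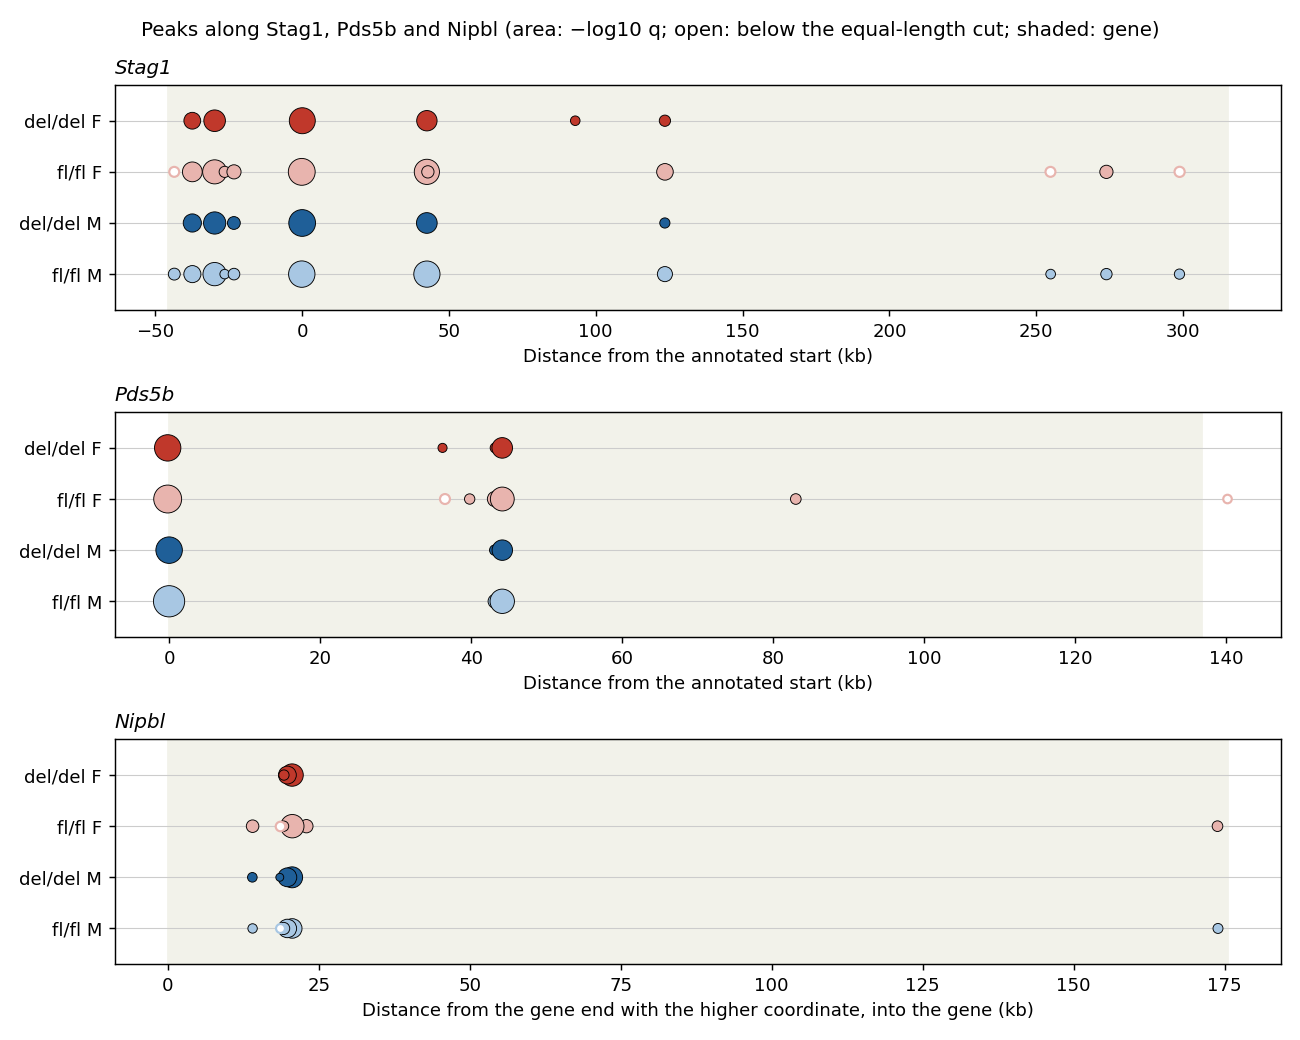
Peaks along Stag1, Pds5b and Nipbl, with 1 line per list, the distance in kb on the horizontal axis and the marker area growing with −log10 q, open where a peak falls outside the equal-length list. The large markers stand in all 4 lists, and several small ones of Stag1 stand on the fl/fl lines alone.

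Nipbl, whose product loads cohesin, lies on chromosome 15 from 8289824 to 8465315, with no peak within 1 kb of either end. Its main site lay 20.6 kb inside the end with the higher coordinate, from 8443646 to 8445631. The best peak there ranked 9601 in deleted females, 12608 in control females, 11207 in deleted males and 19049 in control males. The site was split into 2 called peaks in deleted females, 1 in control females, 3 in deleted males and 2 in control males. The shifts, -0.39 and -0.77, ran toward stronger ranks in deleted cells in both sexes, with up to 0.60 between the sexes. A weak site 1.58 kb inside the other end was present in both control lists alone, at ranks 80664 in females and 75901 in males. The other 4 sites, 14.1 to 23.0 kb from the end with the higher coordinate, ranked 53400 at best, and each lacked a peak in at least 1 list.

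Of the release and retention factors, Wapl on chromosome 14 had the strongest start. Its peak ranked 833 in deleted females, 913 in control females, 1155 in deleted males and 724 in control males. An end of the noncoding gene 5830448L01Rik lay within 1 kb of the summit of this start peak. The rank was better in deleted females and worse in deleted males, by -0.13 and 0.67. A second, weak peak 796 bp after the start was in all lists except that of deleted males, ranked 64425 at best. An interior site 34.8 kb from the start was in every list.

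Pds5a, on the minus strand of chromosome 5, had a single site at its start. The best peak ranked 10152 in deleted females, 10422 in control females, 8292 in deleted males and 11608 in control males, and the small female shift, -0.04, turned to 0.27 with ranks by pileup. In females it was called as 1 peak of 1812 bp in deleted and 1937 bp in control cells, while the male lists divided the same stretch into 3 peaks in deleted and 2 in control cells.

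Pds5b, on the plus strand of the same chromosome, had 8 sites. Its start peak ranked 3832 in deleted females, 4554 in control females, 3367 in deleted males and 1031 in control males. The control male value stood apart from the other 3, and the 2 control lists differed by 2.14 on the log2 rank scale. The female shift was -0.25 by −log10 q and 0.25 by pileup, and the male one was above 0 under each ranking value. Inside the gene, the site 43.1 kb after the start ranked 71960 in deleted females, 40004 in control females, 59354 in deleted males and 41003 in control males. It ranked lower in deleted cells of both sexes, by 0.85 and 0.53, against at most 0.28 between the sexes, and the same held for ranks by pileup and by fold enrichment. The neighbouring site 44.1 kb after the start was far stronger and ranked 13194, 11627, 12257 and 8347 in the same order of lists. Each of the other 5 sites was in 1 list only.

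Ctcf encodes the zinc finger protein that marks loop ends, and it lies on chromosome 8 from 105636474 to 105682922. Its start peak ranked 8765 in deleted females, 11708 in control females, 10260 in deleted males and 13657 in control males. The rank was stronger in deleted cells of both sexes, by -0.42 and -0.41, against at most 0.23 between the sexes. The direction was the same by pileup and by fold enrichment, but there the smaller shift, -0.25 and -0.33, did not exceed the difference between the sexes, 0.28 and 0.36. The summit moved within a peak of about the same length: it lay 255 and 256 bp after the start in deleted and control females, and 238 and 245 bp before it in deleted and control males. An end of the noncoding gene Gm5914 lay within 1 kb of the summit in the female lists but not in the male lists. A second site, 49.4 kb from the start, lay beside Carmil2 and Gm33578 and ranked between 48251 and 61311.

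**Figure D3:**
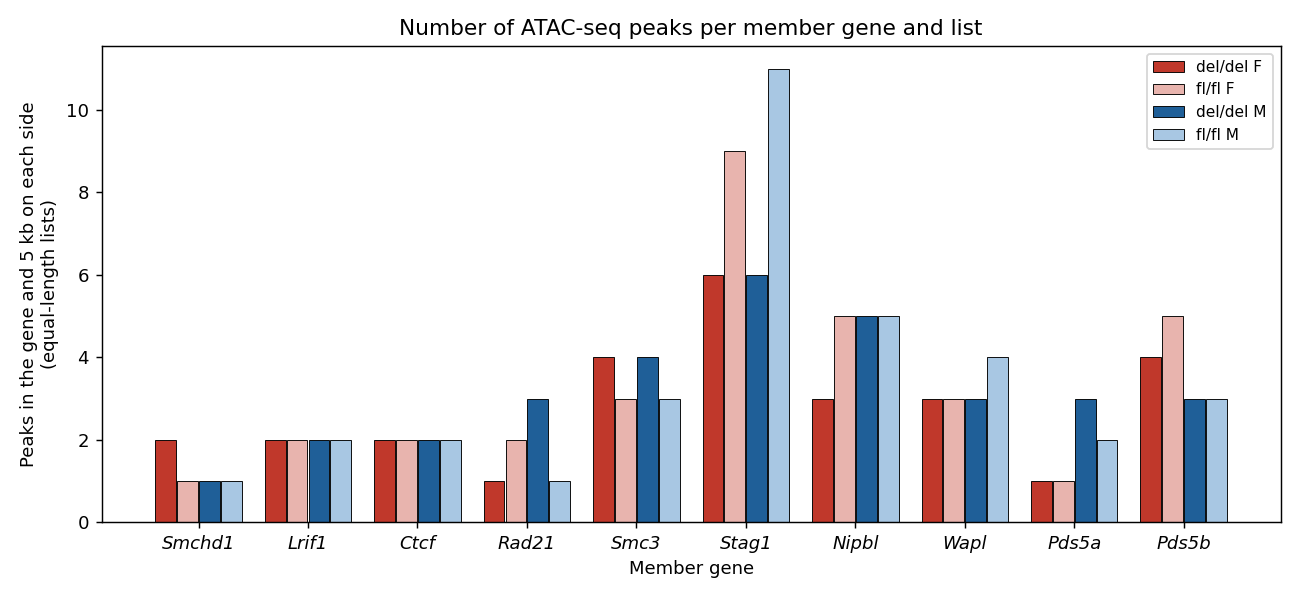
Number of peaks in each gene and 5 kb on each side in the equal-length lists, as bars by list. Stag1 has 6 in either del/del list, against 9 and 11 in the fl/fl lists, and Lrif1 and Ctcf have 2 in every list.

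Counted over the 10 genes, the equal-length lists held 28 member peaks in deleted and 33 in control females, a log2 ratio of -0.24 (95% exact binomial interval -1.02 to 0.53). They held 32 in deleted and 34 in control males, a ratio of -0.09 (-0.83 to 0.65). Both intervals include 0 and cover counting error only. Candidates for loss were the 44079 strongest control peaks, and one counted as lost if it overlapped nothing in the deleted equal-length list. Gained peaks were counted with the genotypes exchanged. Of 17 member candidates 0 were lost in females, beside 0.440% of all candidates, and of 16 candidates 0 were gained, beside 1.13%. In males 0 of 19 were lost, beside 1.09%, and 0 of 17 gained, beside 0.837%. At these numbers a count of 0 allows a share of up to 17.6% and 18.8% in females and 15.8% and 17.6% in males.

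Sharing between the lists was read from the merged sites. Of 42 member sites in the equal-length lists 21 had a peak in all 4, against 55.3% of 114444 sites in all. Over the full lists 21 of 44 were in all 4, against 45.5% of 150516. By place these were 9 of 10 at a start, beside 68.8% of all sites at the start of any gene, 9 of 30 inside the genes, beside 41.8% of such sites in all, and 3 of 4 in the flanks, beside 43.0%. No member peak outside the sites in all 4 full lists ranked better than 39792. In both control lists and neither deleted list stood 3 of 42 member sites, 2 of Stag1 and 1 of Nipbl, beside 3.64% of all sites. The reverse held for 0 of 42, beside 2.64%.

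Among the 21 sites in all 4 lists, 2 ranked better in deleted cells of both sexes by more than the largest difference between the sexes, the starts of Ctcf and Stag1, beside 8.15% of 63328 sites. In the other direction stood 2 as well, the interior sites of Stag1 and Pds5b described above, beside 9.00%. This way of reading the shifts was chosen after the ranks had been seen, and 2 of 21 sites is near the background in either direction. Ranked by pileup or by fold enrichment, both interior sites stayed past the difference between the sexes, the Ctcf start did not, and the Stag1 start did by fold enrichment alone. Away from all annotated starts, 2 of 9 member sites ranked better in deleted females, beside 47.1% of 54078 sites, and 5 of 11 in deleted males, beside 48.3% of 51812. The medians for these member sites were 0.24 in females and 0.10 in males, against 0.03 and 0.01 for all such sites.

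**Figure D4:**
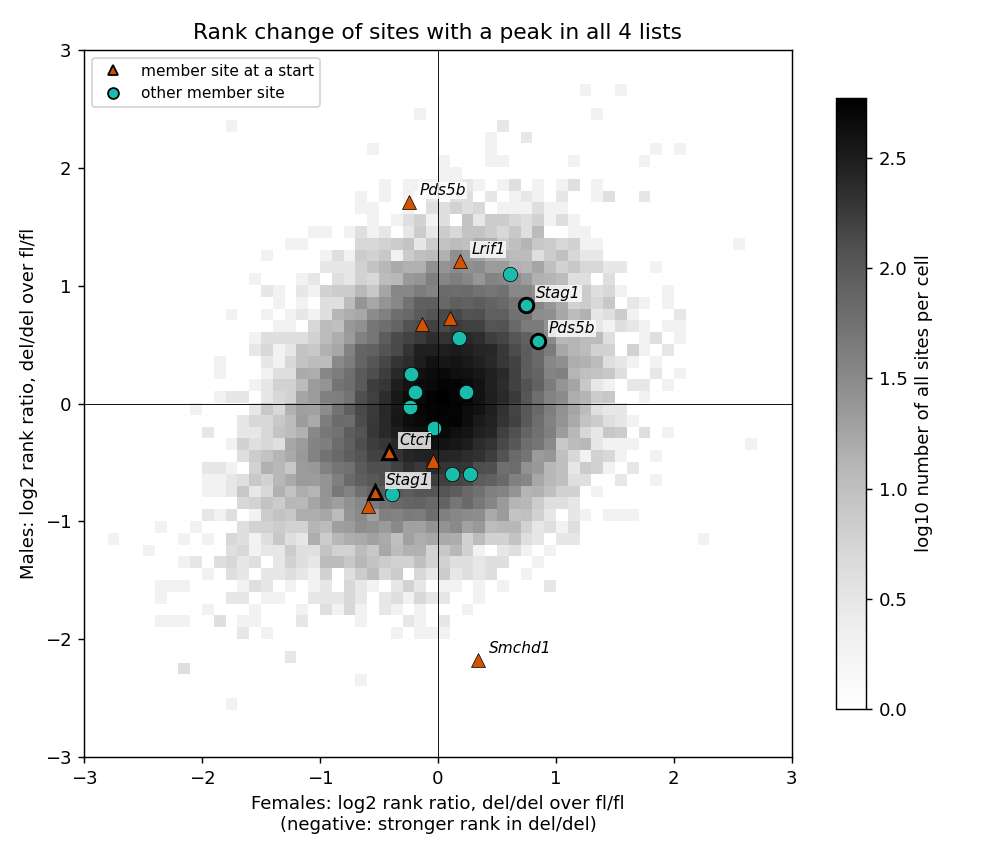
Log2 ratio of ranks by −log10 q, del/del over fl/fl, in females (horizontal) and males (vertical) for all sites with a peak in all 4 lists (grey, log10 number of sites) and for the 21 member sites. Thick outlines mark the 4 sites past the difference between the sexes, and the Smchd1 start lies lowest of the member sites, at 0.34 and -2.18.

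The rest of the pathway was read from 37 other genes, of which 32 had a start peak in all 4 lists. In females 0 of 55 candidates were lost and 0 of 55 gained, beside the 0.440% and 1.13% of all candidates. In males 0 of 49 were lost and 0 of 54 gained, beside 1.09% and 0.837%. Of 33 start peaks compared, 19 ranked better and 14 worse in deleted females, beside 51.9% better over coding genes, and 20 better and 13 worse in deleted males, beside 58.2%, with medians of -0.06 and -0.13 (log2). Rad21l, a meiotic kleisin, Smc5, of the SMC5/6 complex, and Xist, the RNA that starts X inactivation, had no start peak in any list. That concerns only the 1 kb around the annotated positions used. Peaks counted to Smc5 numbered 1 in deleted females, 1 in control females, 1 in deleted males and 2 in control males. In the same order Xist had 4, 3, 1 and 1, and Rad21l had 2, 1, 1 and 0. Hdac8, an X-linked deacetylase of SMC3, ranked 87173 in deleted females and 37611 in control females, and it had no start peak in deleted males and rank 73762 in control males. Ctcfl, a germline paralogue of Ctcf, had rank 97405 in deleted females, below the equal-length cut, and 71951 in control females.

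Among these genes the largest rank changes toward deleted cells were those of Smc6 and Zfp143 in females and Zfp143 and Stag2 in males. Zfp143, a zinc finger factor found at loop anchors, ranked 507 in deleted females, 1293 in control females, 424 in deleted males and 1187 in control males. It was the only gene of the list with a shift of more than 2-fold toward deleted cells in both sexes, -1.35 and -1.49. Zfp143 is named for the size of its shift, and the share of coding starts with such shifts in both sexes was not computed. In either direction 6.65% of coding starts shifted by 2-fold or more in females and 8.06% in males. These shares cover starts of all ranks, and none was computed for starts ranked as near the top as Zfp143. Shifts of the 37 genes were not computed by pileup or fold enrichment. Stag2, the X-linked paralogue of Stag1, ranked 9467 in deleted females, 13529 in control females, 8103 in deleted males and 18139 in control males. Smc6 shifted by -1.41 in females and 0.71 in males. In the other direction stood Ncapg, a condensin subunit, with 2.03 in females and 0.79 in males. Sgo2a, a protector of centromeric cohesin, had 1.71 in females and -0.24 in males. Stag3, a meiotic STAG subunit, had 0.61 in females and 0.89 in males, at ranks of 1199 in deleted females, 787 in control females, 615 in deleted males and 331 in control males.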

How the data were processed

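The files are 4 peak lists, 1 for each group of pooled ATAC-seq libraries. Per the file headers, the authors called peaks with MACS 2.1.0.20140616 on 1 alignment per group, without a control sample, a q-value limit of 0.05, at most 1 tag per position, tags extended to 150 bp and moved upstream by 75 bp. The submitters' processing notes name the build mm10 and, among other tools, Bowtie2 2.2.5 and Trim Galore 0.4.0, with no role for each. Pileup, a signal height, the fold enrichment (a ratio over local background) and the −log10 p and −log10 q values are as deposited by the authors. They were used only within a list.

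Only peaks of the assembled autosomes, X and Y entered, ranked by −log10 q, with ties ordered by −log10 p, fold enrichment and pileup. Each list was then reduced to 88159 peaks, the length of the shortest. Overlap meant 1 shared base pair, and overlapping peaks of the lists were merged into sites. A start peak is the best-ranked peak with its summit within 1 kb of a start in the RefSeq promoter table, or of either gene end where that table has no entry. A shift is the log2 ratio of ranks, deleted over control. Intervals are exact binomial intervals that treat the lists as independent. No paired or replicate test was possible on pooled lists. Depth, lower in the male lists and, within each sex, in the deleted list, can limit which weak peaks are called.

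Named genes are the 10 members and, of 37 further pathway genes, those without a start peak in some list, those with a changed peak and the 2 with the largest shifts in each sex and direction. The members and lists were chosen with earlier results of these data known. Alternatives were the list length, a −log10 q threshold, the ranking value, the flank, the overlap, the margin and the start window. Scripts ran in Python 3.11.15 (scipy 1.17.1, numpy 2.4.6, pandas 2.3.3), and figures were drawn with matplotlib 3.10.9.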

Additional observations from a re-analysis of the deposited data

Results flagged for a closer look

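Ranked by −log10 q, the sexes moved in opposite directions between genotypes at 3 starts, each sex with 1 pooled list per genotype, and the difference between the sexes was not tested. The Smchd1 start peak shifted by 0.34 in females and -2.18 in males (log2 rank ratio, deleted over control). Its direction in females depended on the ranking value: by fold enrichment both sexes moved the same way, with -1.08 in females and -1.68 in males. The Wapl start peak shifted by -0.13 in females and 0.67 in males, and the signs were also opposite by pileup and by fold enrichment. For Pds5b the values were -0.25 in females and 1.71 in males, where the control male list alone stood apart, at rank 1031. By pileup both Pds5b shifts were above 0, 0.25 in females and 1.96 in males.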

How the results depend on the processing

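No paired analysis was possible because each group is 1 list of pooled libraries, and for the same reason no replicate could be left out. Of 73 values of counts and ratios under 9 alternatives, 62 kept to the interval or to within 1.5 times the count reported. The 11 that moved were all counts of lost or gained member peaks, which were 0 in the report. Both limits are wide, so this tally cannot show that the values are stable. The interval of the member ratio in females runs from -1.02 to 0.53. For 6 of 8 start peaks, counts of 4 and 8 both lie within the limit. Without a margin, that is with all peaks of the equal-length lists as candidates, females had 10 lost and 3 gained peaks and males 8 lost and 4 gained. At a −log10 q of at least 10, 2 were lost in females (Stag1 and Pds5b), and 3 were lost (Stag1, Pds5a and Pds5b) and 1 gained (Stag1) in males. Ranked by pileup 1 was lost in females and 1 in males, both in Nipbl, and ranked by fold enrichment 1 was lost in females, in Stag1. With an overlap of 50% of each peak required, 1 was gained in females, in Nipbl. Without a margin a peak just past the end of the other list counts as absent by construction. This held for the gained Smchd1 peak in females, with control peaks ranked 91916 at best. It also held for the gained Nipbl peak in males, with a control peak at rank 89599. The lost peaks and the other gained ones overlapped no peak of the other list as deposited. The peaks called at a −log10 q of at least 10 overlapped peaks of the other deposited list below that threshold, with values from 3.17 to 9.83. For the remaining settings the cause was not tested. The ratio of member peaks ranged from -0.70 to -0.22 in females and from -0.50 to -0.09 in males over the alternatives. Sites seen in some lists only ranked 39792 at best, and the part of depth in this was not tested. The shifts at the 9 start peaks and 2 interior sites were also computed by pileup and by fold enrichment, a choice made after seeing the data, and of 44 values 10 reversed and 4 moved. By fold enrichment the Smchd1 start reversed to -1.08 in females, the first Lrif1 start to -0.52 in females and -1.01 in males, and the second to -0.42 in females and -0.13 in males. By pileup the female shifts reversed to -0.42 and -0.31 at the 2 Lrif1 starts, 0.023 at Stag1, 0.27 at Pds5a and 0.25 at Pds5b. The cause was not tested.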
